A study of Mus musculus with 36 samples.

Results

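The question followed here is whether kidneys of diabetic mice respond to diabetes differently when the tubule lacks the clock protein BMAL1. All 36 of the 36 whole-kidney messenger RNA libraries of the series entered, 9 mice in each of 4 groups taken from the sample titles. The quantity is the interaction of diabetes and genotype, computed for each gene from the raw read counts. It is the log2 effect of streptozotocin in knockout mice minus the log2 effect of streptozotocin in control mice. A value of 0 means that both effects combine by multiplication. A negative value means a smaller rise or a larger fall in the knockout.

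The groups PBS-control and STZ-control were Bmal1lox/lox littermates. The groups PBS-cKOt and STZ-cKOt were Bmal1 lox/lox mice that also carried Pax8-rtTA and LC1, which let doxycycline induce recombination in the renal tubule, so that other kidney cells keep the gene. All 4 groups drank doxycycline at 2 mg/ml for 2 weeks from an age of 8 weeks. One week after that, STZ mice received streptozotocin, which kills pancreatic beta cells, intraperitoneally at 50 mg/kg on 5 consecutive days, and PBS mice received the saline vehicle. The kidneys were collected at zeitgeber time 9, when 8 weeks had passed since the final injection. The effect called diabetes is throughout STZ against PBS. No group separates streptozotocin acting on the kidney itself from diabetes, so these cannot be told apart. Levels are given as CPM, a gene's reads scaled to library size, and in a whole kidney fewer cells of a type and less RNA per cell cannot be told apart.

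BMAL1, encoded by Arntl, pairs with CLOCK on E-box sequences and drives the repressor genes Per, Cry and Nr1d, whose products switch it off again. REV-ERB repressors and ROR activators compete on a second kind of element, through which the loop returns to Arntl itself, and the PAR-bZIP factors DBP, TEF and HLF pass the rhythm on to genes of xenobiotic metabolism. In the kidney the tubular clock is known for its reach into solute transport, glucose handling and lipid use. Diabetes brings the tubule a high glucose load, with hypertrophy and stress responses.

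Between 16.9 and 22.3 M reads were assigned to genes per library (median 20.1 M), and 15637 genes had enough counts to be tested. Mitochondrial genes took between 12.1% and 25.6% of the reads. The library labelled STZ-control 2 went against its label in the targeted gene, at 13.4 CPM of Arntl against at most 2.64 CPM in the remaining 8 of its group. Dbp and Ciart, at 22.1 and 1.95 CPM, also lay within the cKOt range. In Ppard (17.45 CPM), Cyp2a4 (366.7), Cyp2a5 (41.5) and Npas2 (4.49), which differ strongly by genotype, this library lay outside the cKOt range, on the control side. The reason was not tested. Results that rest on this library are given with and without it. A further 4 libraries, STZ-control 7 and 8 and PBS-cKOt 1 and 3, stood apart on the second principal component (13.98% of the variance), at scores from −54.2 to −25.8 where the next library was at −17.4. These 4 lie on opposite corners of the design, so they weigh on the interaction directly.

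Across the genome most estimates of the interaction were small, and few genes departed clearly from multiplication. The interaction had a median of −0.007, a 5th percentile of −0.45 and a 95th percentile of 0.38. For 10694 genes (68.4%) the whole 95% interval lay within a 1.5-fold departure from multiplication in either direction, and for 19 genes (0.121%) it lay wholly beyond it. The share inside the margin followed the level of the gene. It was 1.91% under 1 CPM, 51.7% between 1 and 10 CPM, 89.6% between 10 and 100 CPM and 88.2% above 100 CPM, and intervals reached a median of 0.72 to either side of the estimate in the first class and 0.21 in the last. Thus for most genes under 1 CPM a departure of 1.5-fold was not detectable, and for most genes above 10 CPM it was bounded. The margin is wide beside the diabetes effects. Genes with an adjusted p under 0.05 for STZ had a median absolute log2 effect of 0.37 in control and 0.42 in cKOt mice, less than 1.5-fold. A response present only in control or only in cKOt mice can therefore lie inside the margin. Of these genes, 63.8% (control) and 58.05% (cKOt) had intervals inside it.

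The variation over libraries had the same order. Genotype accounted for 22.8% of the sum of squares of log2 CPM over the tested genes, diabetes for 10.7%, the interaction for 3.47% and the spread within groups for 63.1%, which comes to 1.97% for each of its 32 degrees of freedom. The interaction has 1 degree of freedom.

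Diabetes alone changed 1919 genes in control mice (12.3% of those tested) and 1819 in cKOt mice (11.6%), at an adjusted p under 0.05. These contrasts share no library. The knockout alone changed 3661 genes in PBS mice (23.4%) and 3061 in STZ mice (19.6%). Of the genes changed by diabetes, 695 were called in both genotypes, which is 36.2% of the control list and 38.2% of the cKOt list, and 693 of them moved in the same direction (373 up, 320 down). Genes called in control mice had the same sign in cKOt mice in 90.6% of cases, and genes called in cKOt mice had the same sign in control mice in 90.6%. Genes called in control mice had a median absolute log2 effect of 0.37 there and 0.21 in cKOt mice, but they were picked by the first value. Across all tested genes the diabetes effects in both genotypes had a Pearson r of 0.53 and a Spearman rho of 0.37, which describes genes and not replicates.

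**Figure D1:**
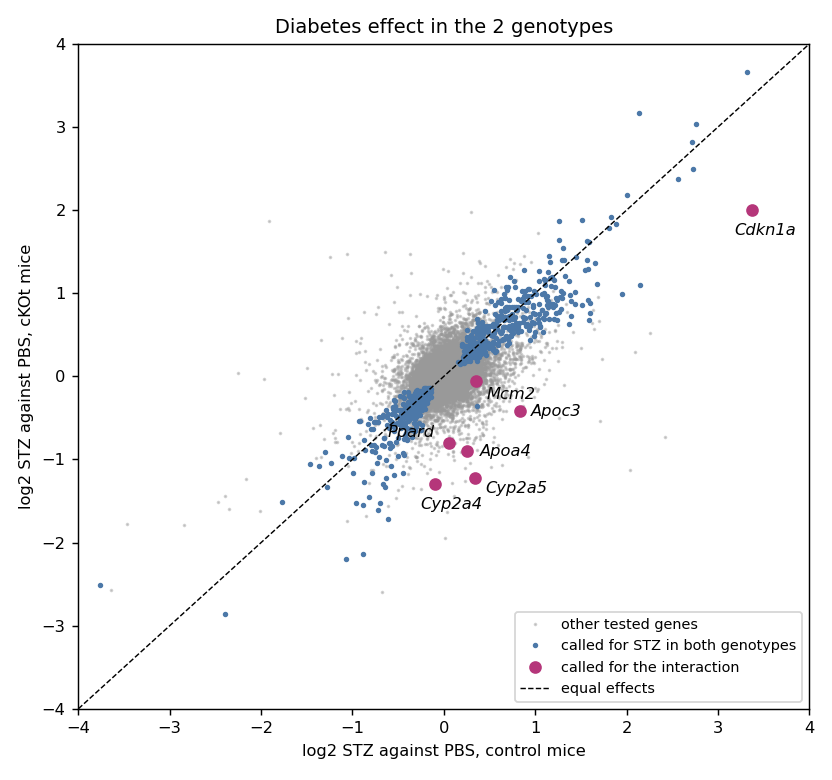
Log2 effect of STZ in control mice (horizontal) against that in cKOt mice (vertical), 1 point per tested gene. Blue points are genes called for STZ in both genotypes, large points the 7 genes called for the interaction, which all lie below the dashed line of equal effects. A total of 3 genes fall outside the axes, which end at 4 in each direction.

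Among the diabetes responses with the lowest adjusted p in control mice, most had a like size in cKOt mice. Eda2r, a receptor of the ectodysplasin family and a p53 target, rose from 1.43 ± 0.373 to 9.37 ± 2.38 CPM in control mice and from 1.49 ± 0.336 to 10.6 ± 2.46 CPM in cKOt mice (mean ± SD, n = 9 each). Its log2 effects were 2.71 and 2.82, and the interaction was 0.11 ± 0.24 (± SE; 95% interval −0.38 to 0.59). Plcd4, a phospholipase C gene, rose by 1.57 and 1.40 on the log2 scale, with an interaction of −0.16 ± 0.14. Tmem43, a nuclear membrane protein gene at 18.7 and 18.9 CPM in the PBS groups, rose by 0.77 and 0.83, with an interval of the interaction from −0.11 to 0.24.

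Falls chosen in control mice varied more in how far they were shared. Tcf24, a transcription factor gene, fell by 0.93 in control and by 0.54 in cKOt mice, with a 95% interval of the interaction from 0.10 to 0.67. Slc18a1, a vesicular monoamine carrier gene, fell by 0.55 and 0.28, with an interval from 0.07 to 0.46, and neither interaction was called. Sugct, an enzyme gene of glutarate metabolism, fell by 0.62 in control and by 0.48 in cKOt mice, and Gcnt2, a glycan-branching enzyme gene, fell by 0.42 and 0.40. Gcnt2 was also lower in the knockout, by 0.44 in PBS and 0.41 in STZ mice. It is an example of both effects adding on the log2 scale, with an interaction of 0.02 ± 0.08 (adjusted p = 0.901).

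The interaction was called for 7 of 15637 genes (0.0448%) by edgeR's quasi-likelihood test with Benjamini-Hochberg adjustment at 0.05. All 7 values were negative, so the count of negative calls was also 7 (0.0448%), and 8 genes passed at 0.1. Without adjustment 1944 genes (12.4%) had a p under 0.05, 950 of them positive and 994 negative, and the Wald test of DESeq2 called 19 genes, 4 of them positive. The count fell to 6 once the library labelled STZ-control 2 was left out, and 5 of these were among the 7. Without the 4 libraries that stood apart it was 5, of which 3 were among the 7, and the share at an unadjusted p under 0.05 was 5.25%. The others called in that fit were Mcm5 and Plod2. Leaving out 1 library at a time gave between 3 and 19 calls. At most 19 genes were called under any setting run, and the genes among them changed with the libraries.

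The 7 genes fall into 4 roles. Cdkn1a and Mcm2 act in the cell cycle, Ppard is a nuclear receptor of lipid metabolism, Apoc3 and Apoa4 encode apolipoproteins, and Cyp2a4 and Cyp2a5 encode cytochromes P450. Only 2 of them, Cdkn1a and Apoc3, also passed the threshold in each of the 11 other settings.

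**Figure D2:**
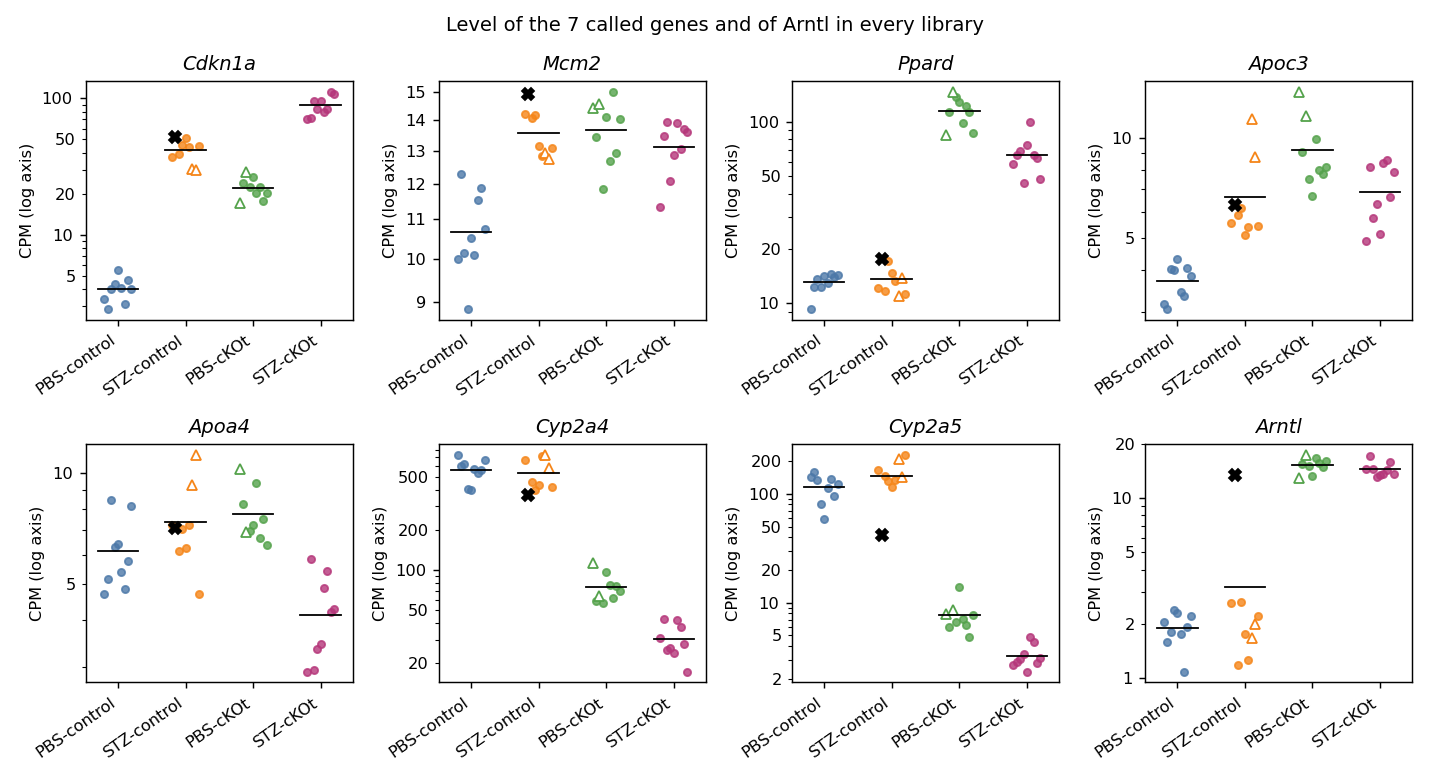
CPM on a log axis of the 7 called genes and of Arntl in every library, with a bar at the group mean. The cross marks the library labelled STZ-control 2 and open triangles the 4 libraries that stood apart. Cdkn1a shows 4 groups that do not overlap, and Apoc3 shows the triangles at the top of STZ-control and PBS-cKOt.

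Cdkn1a had the interaction with the lowest adjusted p. It encodes p21, an inhibitor of cyclin-dependent kinases and a classical p53 target (ENSMUSG00000023067, chromosome 17, 29090976 to 29100727, plus strand, GRCm38). Its lowest, median and highest levels were 2.86, 4.00 and 5.55 CPM for PBS-control and 29.97, 44.3 and 52.2 for STZ-control. In PBS-cKOt they were 17.1, 22.2 and 28.8 CPM and in STZ-cKOt 70.6, 84.2 and 111.5. The 4 groups did not overlap, and the order was PBS-control, PBS-cKOt, STZ-control, STZ-cKOt. Diabetes thus raised Cdkn1a 10.4-fold in control mice and 4.02-fold in cKOt mice, and the deletion alone raised it 5.52-fold in PBS mice and 2.14-fold in STZ mice. The log2 interaction was −1.37 ± 0.17 (± SE, adjusted p = 1.93e-05), which puts the ratio of both diabetes effects at 0.388 (95% interval 0.305 to 0.493). Without the library labelled STZ-control 2 it was −1.32 (adjusted p = 4.39e-05), and it stayed past the threshold in 35 of 35 fits that left out a library.

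The direction for Cdkn1a depends on the scale. If the folds multiplied, STZ-cKOt would stand at 229.6 CPM. If the differences in CPM added, it would stand at 59.5. The mean of 88.8 ± 14.5 CPM (SD, n = 9) lay between them. In absolute terms diabetes added more Cdkn1a reads in cKOt than in control mice, a difference of 29.2 ± 5.69 CPM (± SE, no test). The level was highest where both effects were present.

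Of 23 tested p53 target genes, 20 rose with diabetes in control mice and 17 in cKOt mice, where 1 fell, and 17 were called in both. Beside this list and those below, 992 of all 15637 tested genes rose and 927 fell with diabetes in control mice. In cKOt mice 939 rose and 880 fell, and 373 rose in both genotypes. Of the p53 list only Cdkn1a was called for the interaction, and the list's median interaction was −0.01, the same as over all tested genes. Trp53inp1, a stress-induced p53 cofactor gene, had a positive estimate of 0.49 ± 0.19 (adjusted p = 0.364) and so did Ccng1, a cyclin G gene at a mean of 432.0 CPM, with 0.30 ± 0.13 (adjusted p = 0.371). Gdf15, a stress cytokine gene, had −0.73 ± 0.30 (adjusted p = 0.367).

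Mcm2, a subunit of the replicative MCM helicase (ENSMUSG00000002870, chromosome 6, 88883474 to 88898780, minus strand), had the smallest change among the 7. Its lowest, median and highest levels were 8.85, 10.5 and 12.3 CPM for PBS-control, 12.7, 13.2 and 14.9 in STZ-control, 11.8, 14.1 and 15 in PBS-cKOt and 11.3, 13.5 and 13.9 in STZ-cKOt. All 9 STZ-control libraries lay above all PBS-control libraries, whereas both cKOt groups overlapped with each other and with STZ-control. Mcm2 rose 1.27-fold with diabetes in control mice (adjusted p = 8.79e-05) and 1.28-fold with the deletion in PBS mice. Within cKOt mice the diabetes effect was −0.06 ± 0.06 on the log2 scale (adjusted p = 0.581). Its interaction was −0.41 ± 0.08 (adjusted p = 0.0388). Without the library labelled STZ-control 2, the highest of its group, the interaction was −0.39 and was not called (adjusted p = 0.0811), and it was called in 11 of 35 fits that left out a library.

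Estimates for most other cell cycle genes had the same sign without passing edgeR's test. Of 20 tested members 3 had estimates above 0, the median was −0.28 against −0.01 over all tested genes, and edgeR called 1 with all libraries (Mcm2). For this and every list below, 7579 of all 15637 tested genes had estimates above 0. The median also rose with level, from −0.066 under 1 CPM and −0.043 between 1 and 10 CPM to 0.059 above 100 CPM. The lists were not matched for level. Diabetes raised 16 of the 20 in control mice and 11 in cKOt mice, 10 of them in both. Mcm5, another helicase subunit gene, rose by 0.85 in control mice (adjusted p = 1.34e-05) and stood at 0.19 in cKOt mice (adjusted p = 0.357), with an interaction of −0.66 ± 0.18 (adjusted p = 0.22). Mcm5 was called by voom, with 2 surrogate variables, and without the 4 libraries that stood apart. Mcm2 was called in the first 2 of these settings, but not without the 4 libraries (edgeR adjusted p = 0.0829). Rrm2, the small subunit gene of ribonucleotide reductase, rose by 1.08 and 0.80, with −0.28 ± 0.17 (adjusted p = 0.463).

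Ppard encodes PPAR delta, a nuclear receptor that responds to fatty acids (ENSMUSG00000002250, chromosome 17, 28232700 to 28301474, plus strand). Its lowest, median and highest levels were 9.34, 13.7 and 14.5 CPM for PBS-control and 11.02, 13.3 and 17.4 for STZ-control. In PBS-cKOt they were 84.4, 112.4 and 145.6 CPM and in STZ-cKOt 45.9, 65.1 and 99.3. Every cKOt library lay above every control library, and 8 of 9 STZ-cKOt libraries lay below all PBS-cKOt libraries. The deletion raised Ppard 8.71-fold in PBS mice and 4.81-fold in STZ mice. Diabetes lowered it 1.74-fold in cKOt mice (adjusted p = 7.98e-06), while its effect in control mice was 0.06 ± 0.13 on the log2 scale (adjusted p = 0.804). The interaction was −0.86 ± 0.17 (adjusted p = 0.0388). It was −0.80 and not called without the library labelled STZ-control 2 (adjusted p = 0.0799), and it was called in 17 of 35 fits that left out a library.

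Of 28 tested genes of fatty acid oxidation and PPARA targets, Ppard was the only one called, 13 had estimates above 0 and the median was −0.04. Pex11a, a peroxisome proliferation gene, had −0.22 ± 0.07 (adjusted p = 0.332). Acaa1b, a peroxisomal thiolase gene, had −0.42 ± 0.17 (adjusted p = 0.364), and Ppargc1a, the coactivator gene of mitochondrial biogenesis, had 0.28 ± 0.12 (adjusted p = 0.373). Diabetes lowered 8 of the 28 in cKOt and 3 in control mice, against 880 and 927 of all 15637 tested genes.

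Apoc3 and Apoa4 lie 7.8 kb apart, start to start, on chromosome 9. Apoc3 encodes an apolipoprotein that restrains the clearance of triglyceride-rich particles (ENSMUSG00000032081, 46232933 to 46235636, minus strand). Apoa4 encodes one carried on chylomicrons and high-density lipoprotein (ENSMUSG00000032080, 46240696 to 46243459, plus strand). Both were read at low levels in these kidneys. Apoc3 had lowest, median and highest levels of 3.07, 3.84 and 4.33 CPM for PBS-control, 5.11, 5.88 and 11.4 in STZ-control, 6.69, 8.18 and 13.7 in PBS-cKOt and 4.89, 6.65 and 8.56 in STZ-cKOt. All libraries of STZ-control and of PBS-cKOt lay above all of PBS-control, and 5 of 9 STZ-cKOt libraries lay below all of PBS-cKOt.

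Apoc3 therefore rose with diabetes in control mice, 1.78-fold, and fell with it in cKOt mice, 1.33-fold (adjusted p = 0.000234 and 0.0499). The deletion raised it 2.46-fold in PBS mice, and in STZ mice its effect was 0.06 ± 0.14 on the log2 scale. The interaction was −1.24 ± 0.21 (adjusted p = 0.00405) and −1.25 without the library labelled STZ-control 2 (adjusted p = 0.00434). The 2 highest STZ-control libraries were 7 (11.4 CPM) and 8 (8.76 CPM), and the 2 highest PBS-cKOt libraries were 1 (13.7 CPM) and 3 (11.6 CPM), which are the 4 that stood apart. Without those 4 the interaction was −0.87 and still called (adjusted p = 0.0137).

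Apoa4 had lowest, median and highest levels of 4.70, 5.78 and 8.43 CPM for PBS-control, 4.72, 7.12 and 11.2 in STZ-control, 6.39, 7.24 and 10.3 in PBS-cKOt and 2.91, 4.21 and 5.86 in STZ-cKOt. The first 3 groups overlapped, and all 9 STZ-cKOt libraries lay below all PBS-cKOt libraries. Diabetes lowered it 1.86-fold in cKOt mice (adjusted p = 5.01e-05), and in control mice the effect was 0.26 ± 0.14 on the log2 scale (adjusted p = 0.252). Its interaction was −1.15 ± 0.21 (adjusted p = 0.0105), and −0.95 and not called without the 4 libraries that stood apart (adjusted p = 0.061). Apoa1, the next apolipoprotein gene of the cluster at 4.4 kb from Apoc3, had −0.86 ± 0.33 (adjusted p = 0.364) at a mean of 0.928 CPM.

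Apolipoproteins are mainly made by liver and intestine, so the liver-type marker list was read beside them. Its 12 members summed to between 153.4 and 275.3 CPM for PBS-control, 147.1 and 249.9 for STZ-control, 338.7 and 629.3 in PBS-cKOt and 383.5 and 618.4 in STZ-cKOt. The sum was higher in both cKOt groups. The list's median log2 effect of the deletion was 0.61 in PBS and 0.35 in STZ mice. Apoc3 had 1.30 and 0.06 there, and Apoa4 0.33 and −0.82. The list's median log2 effect of diabetes in cKOt mice was 0.10, against −0.41 for Apoc3 and −0.895 for Apoa4. The list had a median interaction of −0.16, with 3 of 12 estimates above 0. Alb, the gene of albumin and its defining member, was at a mean of 5.43 CPM and had an interaction of −0.27 ± 0.42 (adjusted p = 0.771). The part of these genes in the result was not tested.

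Cyp2a4 and Cyp2a5 are near-identical neighbours on chromosome 7 that encode a steroid hydroxylase and a coumarin hydroxylase. Cyp2a4 spans 26307169 to 26315088 and Cyp2a5 26835305 to 26843548, both on the plus strand (ENSMUSG00000074254 and ENSMUSG00000005547), with starts 528.1 kb apart. Their longest annotated transcripts matched at 1708 of 1738 aligned bases (98.3%), with an identical run of 216 bases. The deposited files list reads with more than 1 alignment as an entry of their own, but how such reads were handled for genes is not given in the sources used here, so the split of reads between these genes is uncertain. Their promoters are shown because both genes fell together in cKOt mice. The windows run from 250 bases before to 50 bases after the start, from RefSeq on GRCm38.p6, at chr7:26306942-26307241 and chr7:26835089-26835388 on the plus strand. Capitals mark bases that differ between the pair or have no partner in the alignment, and 294 of 299 aligned bases (98.3%) were identical.
Cyp2a4: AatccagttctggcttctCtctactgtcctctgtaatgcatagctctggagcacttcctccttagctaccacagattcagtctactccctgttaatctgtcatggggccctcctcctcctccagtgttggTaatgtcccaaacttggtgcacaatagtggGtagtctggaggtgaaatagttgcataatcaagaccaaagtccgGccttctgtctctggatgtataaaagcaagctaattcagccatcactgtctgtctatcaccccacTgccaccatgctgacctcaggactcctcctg
Cyp2a5: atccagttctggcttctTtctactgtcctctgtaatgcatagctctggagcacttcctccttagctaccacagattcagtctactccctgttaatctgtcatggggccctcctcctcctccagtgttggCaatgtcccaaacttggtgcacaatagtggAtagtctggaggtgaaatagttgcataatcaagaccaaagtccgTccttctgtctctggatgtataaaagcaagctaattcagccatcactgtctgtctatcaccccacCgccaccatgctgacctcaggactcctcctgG

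Both cytochrome genes fell with the deletion and fell further with diabetes in cKOt mice. Cyp2a4 had lowest, median and highest levels of 396.0, 570.1 and 734.1 CPM for PBS-control, 366.7, 458.7 and 734.8 in STZ-control, 56.3, 69.2 and 113.2 in PBS-cKOt and 17.4, 27.7 and 43.2 in STZ-cKOt. The control groups overlapped, every cKOt library lay below every control library, and all 9 STZ-cKOt libraries lay below all PBS-cKOt libraries. The deletion lowered Cyp2a4 7.60-fold in PBS mice and 17.4-fold in STZ mice. Diabetes lowered it 2.45-fold in cKOt mice (adjusted p = 7.71e-07), and in control mice the effect was −0.10 ± 0.16 on the log2 scale (adjusted p = 0.735). The test of that difference, the interaction, gave −1.20 ± 0.23 (adjusted p = 0.0233), and −1.25 without the library labelled STZ-control 2 (adjusted p = 0.01). Without the 4 libraries that stood apart it was −1.02 and not called (adjusted p = 0.113). The call was also lost on leaving out STZ-control 6, PBS-cKOt 5, STZ-cKOt 4 or STZ-cKOt 8 alone, with an adjusted p of at most 0.0576.

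Cyp2a5 had lowest, median and highest levels of 58.8, 124.1 and 158.7 CPM for PBS-control, 41.5, 142.6 and 230.2 in STZ-control, 4.88, 7.15 and 13.9 in PBS-cKOt and 2.33, 3.04 and 4.80 in STZ-cKOt. The lowest STZ-control value was that of the library labelled STZ-control 2, and the next was 116.5 CPM. As for Cyp2a4, all 9 STZ-cKOt libraries lay below all PBS-cKOt libraries. The deletion lowered Cyp2a5 15.2-fold in PBS mice and 45.0-fold in STZ mice, and diabetes lowered it 2.34-fold in cKOt mice. Its interaction was −1.57 ± 0.32 (adjusted p = 0.0388), and −1.69 without the library labelled STZ-control 2 (adjusted p = 0.00106). The call held in 9 of 35 fits that left out a library, the fewest of the 7, and not in the fit that left out the 4 libraries with low scores (−1.46, adjusted p = 0.18).

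The cytochrome genes were also set on the linear scale. Cyp2a4 stood at 30.4 ± 8.72 CPM in STZ-cKOt, against 69.8 if folds multiplied and 38.0 if differences added. The difference of differences in CPM was −7.62 with a standard error of 61.3, well within its error. Cyp2a5 stood at 3.25 ± 0.818 CPM, against 9.65 if folds multiplied and 38.3 if differences added, and its difference of differences was −35.1 with a standard error of 21.2. Among 13 tested targets of PAR-bZIP factors and genes of xenobiotic metabolism, 7 had estimates above 0, the 2 called were these genes, and Ces1g, a carboxylesterase gene that also fell with the deletion (log2 −2.31), had 0.53 ± 0.33 (adjusted p = 0.465). Proximal tubule markers, 13 genes, summed to between 14900 and 16950 CPM for PBS-control and 11680 and 15720 for STZ-control. These markers summed to between 11580 and 16500 CPM in PBS-cKOt and 10830 and 14470 in STZ-cKOt, and their median interaction was −0.03.

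**Figure D3:**
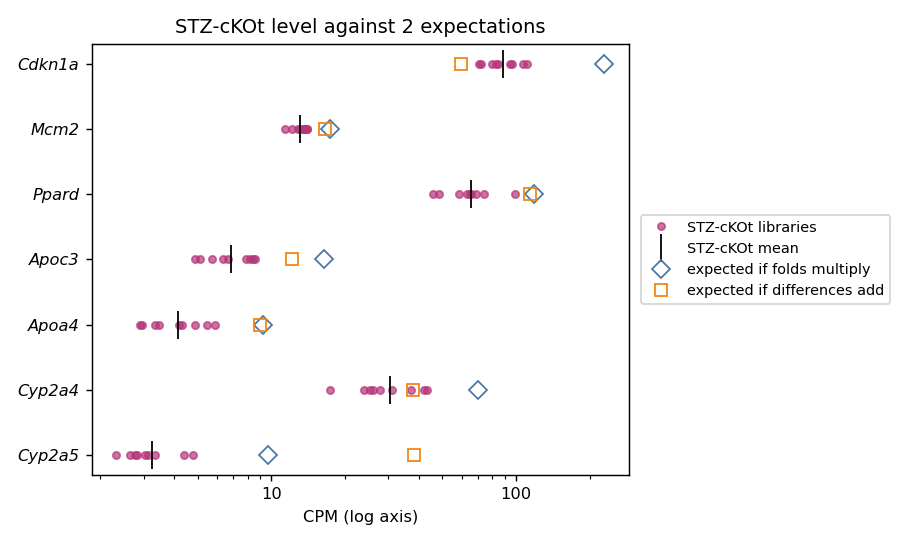
Level of the 7 called genes in the 9 STZ-cKOt libraries (points, mean as a bar, log axis in CPM) beside the level given by the other 3 groups if folds multiply (diamonds) or if differences in CPM add (squares). Every mean lies below its diamond, and Cdkn1a alone lies above its square.

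Apart from the cytochrome pair and the apolipoprotein pair, 1 more pair of called genes shared a chromosome. Ppard lies 858.3 kb from Cdkn1a on chromosome 17, and the 16 tested genes between them had interactions from −0.58 to 0.29, none called (lowest adjusted p = 0.378). Gm42375, annotated antisense and overlapping the start of Cyp2a4, had −0.86 ± 0.24 (adjusted p = 0.239). It rose with the deletion in PBS mice, unlike Cyp2a4, but whether the counting used strand is not given, so reads of that overlap cannot be told apart. For Mcm2 no called gene lay within 1 Mb.

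Promoter windows in RefSeq were on hand for 6 of the 7 genes, with 7 windows in all, and were searched on both strands. The E-box CACGTG was in 0 of 7 windows, against 7.15% of all 32851 promoters. The D-box TTANGTAA was in 0 of 7, against 2.32%. The core of ROR and REV-ERB elements, AGGTCA, was in 3 of 7, those of Cyp2a4, Cyp2a5 and Mcm2, against 16.3% of all. In the cytochrome pair it lies past the start, at bases 30 and 29, and in Mcm2 before it, at base −197. The windows of Cyp2a4 and Cyp2a5 are near-identical and Cdkn1a is counted more than once, so the 7 windows are not independent. The comparison with all promoters was not tested, and these counts only describe the letters of these windows.

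Arntl, the targeted gene, had lowest, median and highest levels of 1.09, 1.91 and 2.40 CPM for PBS-control, 1.18, 1.99 and 13.4 in STZ-control, 12.9, 15.5 and 17.4 in PBS-cKOt and 13.03, 14.4 and 17.1 in STZ-cKOt. Whole-gene counts take in exons outside the deleted part, so they do not show the deletion. The interaction was −0.84 ± 0.39 (adjusted p = 0.384) and −0.10 ± 0.17 without the library labelled STZ-control 2, whose 13.4 CPM lay among the cKOt values.

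Clock genes with ROR/REV-ERB elements followed Arntl in that dependence. Their 6 members had a median interaction of −0.55 with all libraries and −0.04 without the library labelled STZ-control 2, and edgeR called 0 of them, with 3 negative and 0 positive at an unadjusted p under 0.05, while Npas2 was called by DESeq2 and with 2 surrogate variables. Npas2, a partner of BMAL1 related to CLOCK, had −1.10 ± 0.26 (adjusted p = 0.12), and −0.84 without that library (adjusted p = 0.213). Its levels in STZ-control ran from 1.006 to 4.49 CPM and in PBS-control from 0.730 to 1.53, against medians of 51.4 in PBS-cKOt and 42.8 in STZ-cKOt. Of 15 clock and E-box output genes, 12 had estimates above 0, 5 of them at an unadjusted p under 0.05, and edgeR and DESeq2 called 0. Their median was 0.16 with all libraries and 0.07 without the library labelled STZ-control 2. The estimates of Dbp (0.06) and Ciart (0.10) turned to −0.08 and −0.05 without it. Nr1d2, which encodes REV-ERB beta, had 0.53 ± 0.14 (adjusted p = 0.198), and 0.46 without that library (adjusted p = 0.216). It stood at medians of 209.1, 195.2, 43.9 and 57.6 CPM, with PBS-control first, then STZ-control, PBS-cKOt and STZ-cKOt.

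Glucose handling showed no called interaction. G6pc, the catalytic subunit gene that releases free glucose, had medians of 511.5, 331.0, 664.0 and 597.8 CPM in the same order of groups, and every STZ-cKOt library lay above every STZ-control library. It fell with diabetes in control mice by 0.57 on the log2 scale (adjusted p = 0.0012) and stood at −0.04 in cKOt mice (adjusted p = 0.883), but the interaction of 0.53 ± 0.17 did not pass (adjusted p = 0.332, 95% interval 0.19 to 0.88). Pck1, the gene of the cytosolic carboxykinase that feeds gluconeogenesis, had medians of 2128, 1693, 2054 and 2260 CPM and an interaction of 0.36 ± 0.20 (adjusted p = 0.431). Of 13 gluconeogenesis genes 10 had estimates above 0, with a median of 0.12, where all tested genes above 100 CPM had 0.059.

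The apical sodium-glucose cotransporters had interactions near 0. Slc5a2, the high-capacity carrier gene of the early proximal tubule, had medians of 337.1, 276.5, 376.8 and 340.0 CPM and an interaction of 0.02 ± 0.18 (adjusted p = 0.972), with a 95% interval from −0.35 to 0.38. Slc5a1, the high-affinity carrier gene further down, had medians of 68.6, 65.3, 68.0 and 75.2 CPM and an interaction of 0.14 ± 0.11 (adjusted p = 0.544), with a 95% interval from −0.08 to 0.35. Slc2a2, the basolateral glucose carrier gene, singled out after its values were seen, rose by 0.51 in cKOt mice (adjusted p = 0.00619) and had an interaction of 0.63 ± 0.18 (adjusted p = 0.252).

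Over all 27 pathway lists, edgeR with all libraries called a member in 4, 1 or 2 each and all negative, which are the cell cycle, p53, fatty acid and xenobiotic lists already given. Other settings also called Npas2 of the ROR/REV-ERB list (DESeq2 and 2 surrogate variables) and Clu of the tubular injury list (DESeq2 and voom). Among the others, genes of cholesterol and fatty acid synthesis had a median of 0.22, with 20 of 25 estimates above 0 and 9 at an unadjusted p under 0.05, all positive. Diabetes lowered 8 of them in control and 5 in cKOt mice, where 2 rose. Hmgcs1, the synthase gene at the entry of the mevalonate pathway, fell by 0.26 in control mice (adjusted p = 0.00604) and stood at 0.04 in cKOt mice, with an interaction of 0.30 ± 0.09 (adjusted p = 0.298). Insig1, the sterol sensor gene that retains SCAP, had 0.47 ± 0.16 (adjusted p = 0.332). Interferon-stimulated genes rose with diabetes in both genotypes, 13 of 20 in each and 10 in both, with a median interaction of −0.08.

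Among tubular injury genes, Clu, which encodes the chaperone clusterin, had the lowest adjusted p, with −0.72 ± 0.17 (adjusted p = 0.12). Its medians were 161.8, 259.2, 228.6 and 222.8 CPM, with the groups in the same order and PBS-control first. It rose with diabetes in control mice by 0.77 (adjusted p = 2.45e-05) and stood at 0.05 in cKOt mice (adjusted p = 0.854). Lcn2, the neutrophil gelatinase-associated lipocalin gene, rose by 1.60 in control and by 0.77 in cKOt mice, with −0.83 ± 0.36 (adjusted p = 0.373). Of 18 tested members 7 had estimates above 0, and edgeR called 0, with 1 positive and 5 negative at an unadjusted p under 0.05. DESeq2 and voom called Clu.

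**Figure D4:**
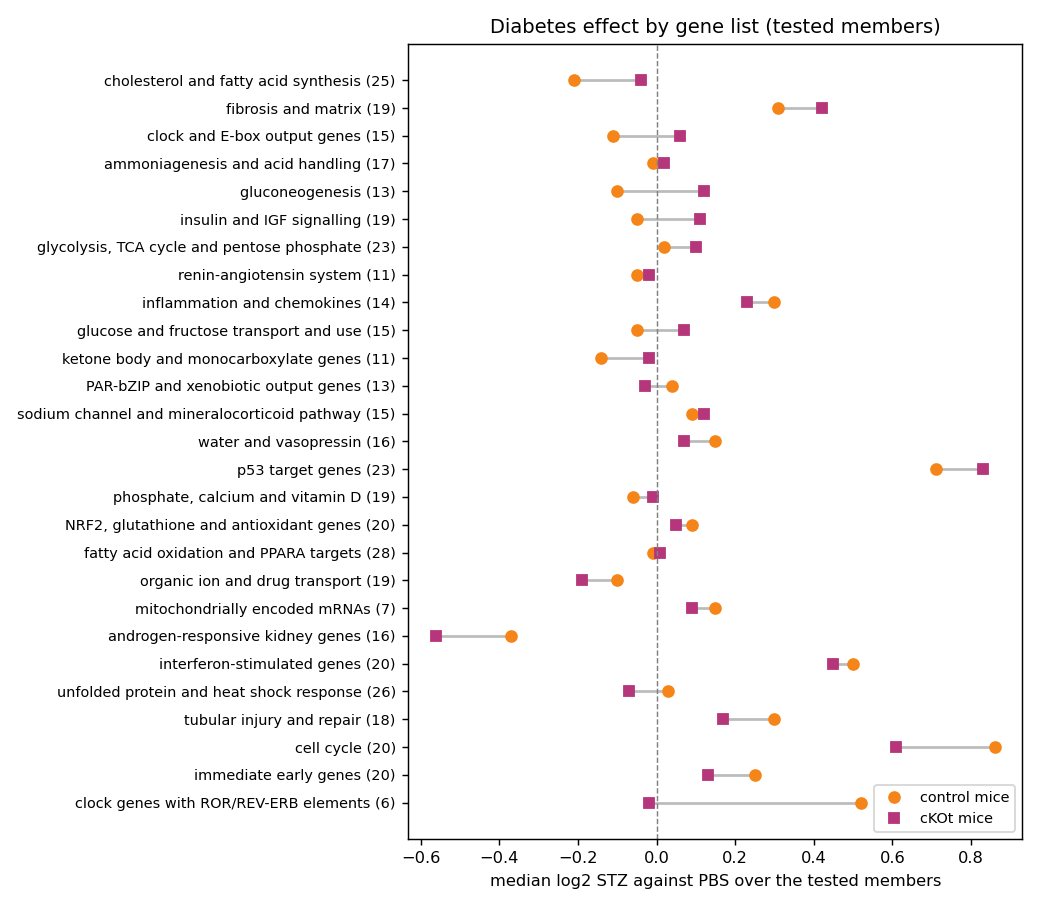
Median log2 effect of STZ over the tested members of each of the 27 pathway lists (number of tested members in brackets) in control mice (circles) and cKOt mice (squares), ordered by the median interaction of the members. The p53, cell cycle and interferon lists lie to the right of 0 in both genotypes, and the ROR/REV-ERB list has the widest gap, which is −0.04 as a median interaction without the library labelled STZ-control 2.

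Marker lists of cell types held no gene called by edgeR, DESeq2 or voom. Adipocyte markers had a median interaction of 1.00 with 8 of 8 estimates above 0, but the standard errors reached 1.98 and the summed level ran from 47.8 to 339.2 CPM within PBS-control alone. Endothelial markers had 0.28 (8 of 8 above 0) and principal cells of the collecting duct −0.27 (3 of 9 above 0). In the latter list Hsd11b2, which protects the mineralocorticoid receptor from cortisol-like steroids, had −0.47 ± 0.16 (adjusted p = 0.332). The part of these cell types in the called genes was not tested.

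Just outside edgeR's threshold lay Creb3l1, the gene of a membrane-bound transcription factor of the secretory pathway (−0.75, adjusted p = 0.0623). Its medians were 5.06, 5.00, 8.92 and 4.43 CPM in the same order. After it came BC035947 (−0.56, adjusted p = 0.103), Stra6l, a retinol-binding protein receptor gene (−0.62, adjusted p = 0.105), Itih2, an inter-alpha-trypsin inhibitor heavy chain gene (−0.72, adjusted p = 0.105), and Gm15265 (−0.73, adjusted p = 0.108). Each of these passed with another tool. DESeq2 called Creb3l1 (adjusted p = 0.00717), BC035947 (0.0102), Stra6l (0.0137) and Itih2 (0.0137), and voom called BC035947 (0.0159), Stra6l (0.0178) and Gm15265 (0.039). Inmt, an indole N-methyltransferase gene, fell with diabetes by 0.72 in control and by 1.60 in cKOt mice, with lowest, median and highest levels of 757.5, 880.0 and 1107 CPM for PBS-control, 276.7, 541.4 and 793.3 in STZ-control, 338.7, 424.5 and 692.3 in PBS-cKOt and 113.9, 144.3 and 197.2 in STZ-cKOt. With all libraries it was not called by edgeR (−0.88 ± 0.20, adjusted p = 0.12) and was called by DESeq2 (adjusted p = 0.0146). In edgeR it was called without the library labelled STZ-control 2, the lowest of its group (−0.97, adjusted p = 0.0161).

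With all 36 libraries no positive interaction passed in edgeR, and DESeq2 called Ccdc126, Idh1, Slc17a5 and Prnp. The lowest adjusted p among them was that of Ccdc126 (0.67 ± 0.16, adjusted p = 0.12), then Idh1, the cytosolic isocitrate dehydrogenase gene (0.45 ± 0.11, adjusted p = 0.162), and Slc17a5, the lysosomal sialic acid carrier gene (0.28 ± 0.07, adjusted p = 0.162). Of the 19 genes whose interval lay wholly beyond 1.5-fold, 15 were negative and 4 positive, 5 were called, and 11 had a mean under 2 CPM. Among those not called, the aldo-keto reductase gene Akr1c18 at 18.9 CPM had −1.38 (95% interval −2.06 to −0.70), and Akr1c6 had −5.51 with an interval from −9.87 to −1.16. The SD of Akr1c6 exceeded its mean in 3 groups, such as 8.69 ± 25.2 CPM in STZ-control. The genes Ccdc126, Idh1, Slc17a5, Prnp, Akr1c18 and Akr1c6 were chosen for mention after their values were seen.

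**Figure D5:**
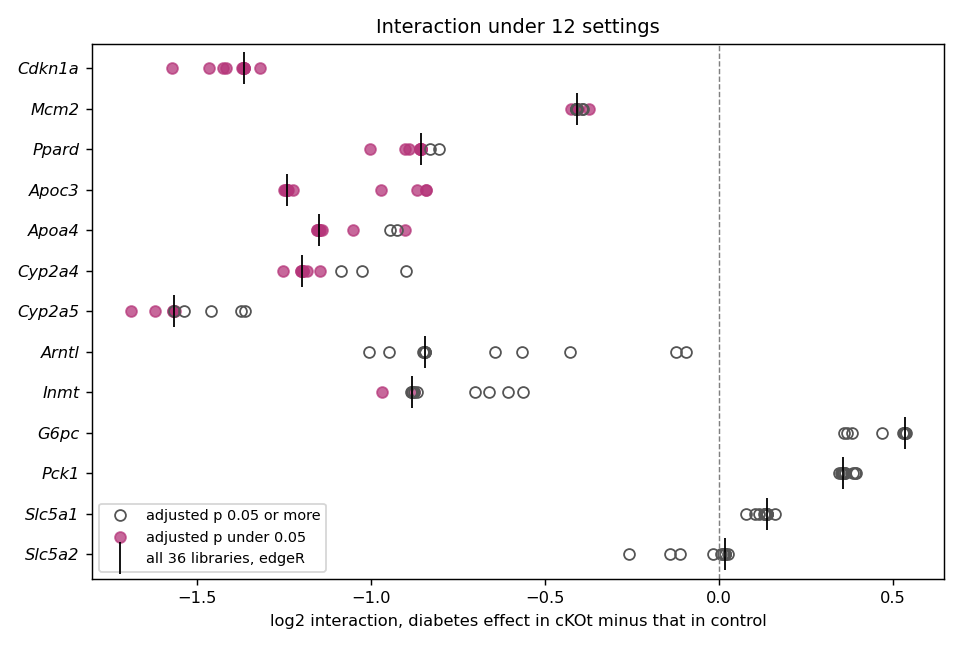
Log2 interaction of 13 genes with all 36 libraries (bar) and under the 11 other settings (points, filled where the adjusted p is under 0.05). Cdkn1a and Apoc3 are filled throughout, Arntl ranges from −1.005 to −0.10, and the glucose carriers and gluconeogenic genes stay unfilled.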

How the data were processed

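Whole-kidney RNA of 36 mice was sequenced from TruSeq Stranded mRNA libraries made from 500 ng of total RNA, per the labels' protocols. The deposited values are raw counts of reads per gene made by the authors. Tools listed in the submitters' processing notes are STAR 2.5.3a, cutadapt 1.8 and HTSeq 0.9.1, with the build GRCm38. The strand setting, the handling of reads with several alignments and the gene annotation used are not given in the sources used here. Each file held 53715 genes, of which 53620 had a symbol in GENCODE M21, used for names and coordinates, and 31610 had a read. Of all counted reads, 30.9% to 42.8% were not unique, 3.64% to 6.38% lay in no gene and 0.582% to 0.738% in more than 1. These entries stayed out of library sizes.

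Counts were scaled by TMM, filtered by filterByExpr and tested with edgeR 4.0.16 in R 4.3.3 by quasi-likelihood F tests, with 1 mean per group in all 36 libraries (32 residual degrees of freedom) and Benjamini-Hochberg adjustment within each contrast. Standard errors and 95% intervals come from the same fit, and the method was tested on simulated data. Alternatives used DESeq2 1.42.0, limma 3.58.1, sva 3.50.0, other filters and fewer libraries, and the text of the closing section gives their effect. Sequences were aligned with mafft 7.526. Named genes are those called for the interaction whose mean reached 1 CPM, predicted genes excepted, at most 14 per direction, the lowest adjusted p of each gene list with a called member, and Arntl, Ppard, Cdkn1a, Pck1, G6pc, Slc5a1 and Slc5a2. The genes nearest the threshold, list examples and others were named after their values were seen. The members and gene lists were chosen with earlier results of these data known. Each library is 1 animal. Over 144 pairs of replicates the chi-square per gene ran from 5.85 to 99.8, so replicates differed by more than counting noise, and none was merged.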

Additional observations from a re-analysis of the deposited data

Results flagged for a closer look

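Single libraries stood far from the rest of their group in 4 of the 48 combinations of 12 genes and 4 groups that were examined, and chance gives about 1 in 20. Ppard in PBS-control replicate 1 was at 9.34 CPM, where the next library was at 12.3. Cyp2a5 in PBS-cKOt replicate 5 was at 13.9 CPM, with the next at 8.51. Arntl in the library labelled STZ-control 2 was at 13.4 CPM, with the next at 2.64. Slc5a1 in PBS-cKOt replicate 8 was at 88.6 CPM, with the next at 70.6.

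The diabetes effect differed between genotypes, by the test of the difference itself, for the 7 called genes. On the log2 scale the difference was −1.37 for Cdkn1a, −1.24 for Apoc3, −1.15 for Apoa4, −1.20 for Cyp2a4, −0.86 for Ppard, −0.41 for Mcm2 and −1.57 for Cyp2a5. In Cdkn1a both effects were rises. In Apoc3 and Mcm2 the effect in control mice was a rise, and Apoc3 fell in cKOt mice. In Apoa4, Cyp2a4, Cyp2a5 and Ppard only the fall in cKOt mice passed its own test.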

How the results depend on the processing

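With all 36 libraries 7 genes were called, all negative. The Wald test of DESeq2 called 19 (4 positive, 15 negative), which held all 7, and limma voom with quality weights called 15, all negative, which held 6. Without the 4 libraries that stood apart and STZ-control 2 the count was 4, all negative. Plod2, not among the 7, was called in that fit, by voom, with 2 surrogate variables, and without the 4 libraries alone. Leaving out 1 library at a time gave 3 to 19 calls, 0 to 1 of them positive and 3 to 18 negative. It was 19 without STZ-control 9, 14 without STZ-cKOt 6, and 3 without STZ-control 6, PBS-cKOt 5, STZ-cKOt 4 or STZ-cKOt 8. It was 4 without PBS-control 1 or 4, STZ-control 4, 5 or 8, PBS-cKOt 2 or 3, or STZ-cKOt 1 or 9, and in the other 20 of 35 fits it stayed within 1.5 times. The positive call came without STZ-control 3 or 9. Over the 11 other settings, calls were lost in 2 for Apoa4 and Ppard, 3 for Cyp2a4, 5 for Cyp2a5 and 6 for Mcm2, and no log2 value of the 7 changed sign. The cause was not tested.

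The share of genes within the margin of additivity was 30.1% at a margin of 25%, and 89.8% at 2-fold. At 1.5-fold it was 74.4% with voom, 34.4% with no filter, which adds genes of low counts, 77.1% with a mean of at least 1 CPM, 74.1% with 2 surrogate variables, 67.1% without STZ-control 2, 73.4% without the 4 libraries and 72.6% without all 5. In the same order from voom on, the r of the diabetes effects was 0.589, 0.15, 0.553, 0.623, 0.51, 0.635 and 0.624. With 2 surrogate variables 2886 genes were called for diabetes in cKOt mice, and without the 5 libraries 1140 in control mice. On the linear CPM scale the interaction of Cdkn1a was 29.2, opposite in sign.

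Equal replicate numbers were not shown to pair mice. Over 54 same-numbered pairs the mean correlation of deviations was 0.0284 (−0.247 to 0.396), against −0.00264 over 432 other pairs. Of the same-numbered pairs 14 exceeded 0.1, and 6 of 36 libraries correlated best with their own number. With the replicate number as a block 5 genes were called for the interaction, without Mcm2 and Cyp2a5. With 9 mice a group, departures under 1.5-fold were mostly not detectable below 1 CPM. They could also miss the call at high levels, as for G6pc at a mean of 509 CPM (0.53 ± 0.17, edgeR adjusted p = 0.332).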

Other observations

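Calls for diabetes in 1 genotype alone rarely came with a called difference between genotypes. Of 1223 genes called for STZ in control mice alone, 1 was called for the interaction (Mcm2), and of 1124 called in cKOt mice alone, 4 were (Apoa4, Cyp2a4, Cyp2a5 and Ppard). The other 2 called genes, Cdkn1a and Apoc3, were called for STZ in both genotypes.

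Among genes lowered by diabetes in cKOt mice with the lowest adjusted p, several had a smaller log2 fall in control mice. Their differences between genotypes were not called by edgeR. Cyp4b1, a cytochrome P450 gene abundant in these kidneys, fell from 3504 ± 348.1 to 2263 ± 338.5 CPM in control mice and from 2071 ± 250.2 to 890.2 ± 280.5 CPM in cKOt mice (SD, n = 9). Its log2 effects of diabetes were −0.63 and −1.22, with an interaction of −0.59 ± 0.17 (edgeR adjusted p = 0.276). On the linear scale its difference of differences was 60.7 CPM with a standard error of 204.7, well within its error. Fgf1, a growth factor gene, fell by 0.30 in control and by 0.61 in cKOt mice, with −0.32 ± 0.08 (edgeR adjusted p = 0.198), and limma voom called its interaction. Slc52a3, a riboflavin carrier gene, fell by 0.25 and 0.64, with −0.39 ± 0.10 (adjusted p = 0.18). These genes were picked by their fall in cKOt mice, so the order of their effects is no evidence of a difference.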
